A study of Rattus norvegicus with 8 samples.

Results

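The genes described here are those for the Kv channel-interacting proteins, Kcnip1, Kcnip2, Kcnip3 and Kcnip4, as counted at polyadenylation sites in the rat hypothalamus. All sites carrying 1 of these 4 gene symbols were taken, which gave 253 of 73922 sites. Kcnip4 had 219 of them, Kcnip1 had 30, Kcnip3 had 4, and Kcnip2 was listed at no site. Every listed site held at least 30 reads over all libraries, so a gene below that number at each of its sites would not appear. Whole transcriptome termini site sequencing (WTTS-seq), which reads the 3′ ends of polyadenylated RNA, was run on hypothalamic tissue from 8 male adult Long-Evans rats. The obesity group was 4 rats made obese with a high fat diet that they could eat freely, and the control group was 4 rats on standard chow. Both diets lasted 36 days, and no allele or drug is named for either group. The libraries held 1417531 to 1957726 reads each. Values of single libraries are listed below in the order of the library numbers, 1 to 4, in each group. Kcnip4 was chosen by the read counts of 1 of its sites in this diet comparison. Its obesity and control values are therefore given below as a description without a test. Kcnip1 and Kcnip3 were tested in fits over all sites and all genes.

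Kv channel-interacting proteins (KChIPs) are small EF-hand calcium-binding proteins of the neuronal calcium sensor family. They bind the cytoplasmic N terminus of Kv4 channels, whose pore-forming subunits are encoded by the Kcnd genes, and change their surface expression and gating. Kv4 channels carry the A-type potassium current of dendrites and cell bodies, and the transmembrane proteins encoded by Dpp6 and Dpp10 are their other auxiliary subunits. Kcnip3 is also known as DREAM or calsenilin, a calcium-dependent transcriptional repressor of the prodynorphin gene.

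The libraries carried neuronal and hypothalamic transcripts. The summed abundance of 5 neuronal markers (Snap25, Syt1, Rbfox3, Tubb3 and Map2) was 4306 to 4681 CPM in control and 3883 to 4936 CPM in obesity, where CPM is the read count as a share of the normalised library size. For 5 hypothalamic markers (Avp, Oxt, Pmch, Hcrt and Agrp) it was 1023 to 1458 CPM in control and 822 to 1052 CPM in obesity. The fitted value was lower in obesity for 4 of these 5 and higher for 1. Avp and Oxt had an unadjusted p under 0.05, as did 5.12% of all genes, and both had an adjusted p of 0.921 (edgeR). Oxt was at 53.6 to 76.0 CPM in control and 22.3 to 45.1 CPM in obesity, so its groups were apart. Over all genes, 1.77% were apart in this direction. Astrocyte markers summed to 850 to 1217 CPM in control and 732 to 1047 CPM in obesity, oligodendrocyte markers to 15947 to 20987 and 12457 to 19925 CPM, and thalamic markers to 147 to 241 and 89.4 to 258 CPM. Anterior pituitary markers summed to 17.9 to 56.0 CPM in control and 6.13 to 127 CPM in obesity, with growth hormone (Gh1) at 70.6 CPM in obesity library 2 and Prl not listed. Of 3 choroid plexus markers only Ttr was listed, at 98.0 CPM in obesity library 4 and at 0 to 1.52 CPM in the other 7 libraries, while Kl and Folr1 were not listed. In such bulk tissue, fewer cells of a type and less RNA per cell cannot be told apart.

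Kcnip4 was among the genes with the most sites and reads in the table. Its sites lay on chromosome 14, plus strand, from 65550025 to 66749184 of the Rnor_6.0 assembly, a span of 1199 kb. On this strand 217 sites held 28959 reads, which made it the 2nd of 12255 genes by number of sites and the 19th by reads. The median site had 73 reads, and 138 of the 217 sites were read in all 8 libraries. The authors placed 215 of these sites on 1 transcript record, of 3 used for the gene on this strand. Only 1 site of another symbol, the pseudogene LOC102547995, lay inside the span.

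The reads of Kcnip4 were spread along the gene and were not collected at its 3′ end. The most abundant site, at 66134464 to 66134515 near the middle of the span, held 1396 reads, or 4.82% of the gene. It had 229, 164, 103 and 133 reads in control against 316, 134, 163 and 154 in obesity, and the groups overlapped. The 10 most abundant sites together held 23.8% of the reads. Neighbouring sites were a median of 1734 bases apart. No site was listed in one stretch of 284.8 kb, which covered the whole of stretch 3 below.

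When the span was cut into 10 equal stretches from the 5′ to the 3′ end, most Kcnip4 reads lay in stretch 1 and around the middle. Stretch 1 had 58 sites and 23.0% of the reads, and stretch 2 had 10 sites and 5.80%. After the empty stretch 3, stretch 4 held 9.97%, stretch 5 held 22.9% at 48 sites, stretch 6 held 10.9% and stretch 7 held 16.4%. Stretches 8 and 9 held 4.13% and 4.58%, and stretch 10, at the 3′ end, held 2.33% at 3 sites. Stretch 1 took 24.1% ± 2.37 (SD, n = 4) of the Kcnip4 reads in control and 22.0% ± 2.55 in obesity, with 18.6% to 27.7% over all libraries.

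**Figure D1:**
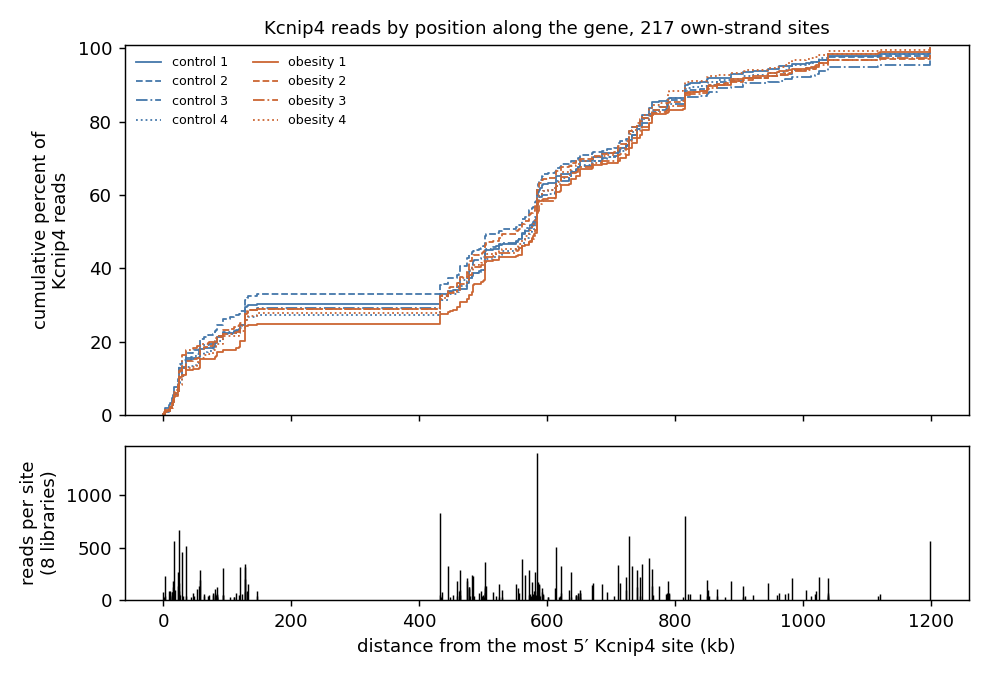
Upper panel, cumulative percent of Kcnip4 reads (y axis) against the distance in kb from the most 5′ site (x axis), 1 line for each of the 8 libraries. Lower panel, reads per site summed over the 8 libraries at the same distances. The 8 lines run close together, are flat over the 284.8 kb without a listed site, and leave 2.33% of all reads for the last 10% of the span.

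The most 3′ site of Kcnip4, at 66749138 to 66749184, held 567 reads, or 1.96% of the gene. This was more than the median Kcnip4 site, which had 73 reads. It had 61, 88, 120 and 43 reads in control against 43, 95, 99 and 18 in obesity. Its share of the Kcnip4 reads was lowest in obesity library 4, at 0.376% (95% Clopper-Pearson interval 0.223 to 0.593), and highest in control library 3, at 4.56% (3.80 to 5.43). The groups overlapped. The 3 sites in the last 10% of the span together held 2.76% ± 1.55 in control and 2.22% ± 1.19 in obesity (SD, n = 4).

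Low shares at the most 3′ site were common among genes with many sites. Such genes divide their reads among many sites, so low shares at any 1 site follow in part from this choice. The shares were not scaled by the number of sites. In 111 genes with over 50 sites, the median share at that site was 0.774%, and Kcnip4 ranked 91st of the 111 counted from the lowest. In the other many-site genes together, this share was 0.697% to 1.83% of their reads by library. It too was highest in control library 3 and lowest in obesity library 4. The part that such differences between libraries played in the Kcnip4 shares was not tested.

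Over all its own-strand sites, Kcnip4 had 3668, 4114, 2629 and 2935 reads in control against 4046, 3210, 3567 and 4790 in obesity. On the CPM scale these were 2598, 2753, 2137 and 2231 in control and 3039, 2606, 2090 and 3260 in obesity. The lowest level of all was in obesity library 3 and the highest in obesity library 4, so the groups overlapped. The means were 2430 ± 293 CPM in control and 2749 ± 517 CPM in obesity (SD, n = 4), with a log2 ratio of obesity to control of 0.18 (SE 0.19) in the edgeR fit. From the 3 sites in the last 10% of the span alone, the log2 ratio was -0.06.

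**Figure D2:**
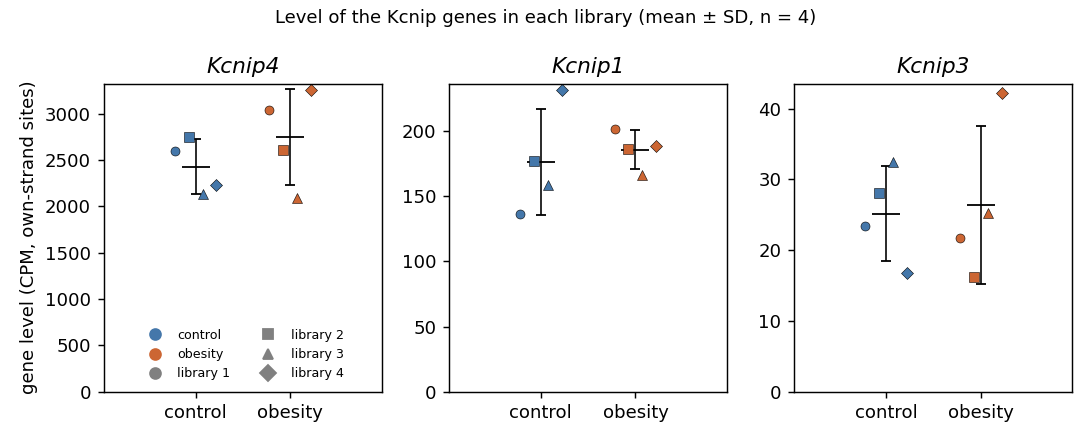
Gene level in CPM (y axis, starting at 0) of Kcnip4, Kcnip1 and Kcnip3 in the 4 control and 4 obesity libraries. Points are libraries, with a marker shape for each library number, and bars are the mean ± SD (n = 4). The groups overlap in all 3 genes, and obesity library 4 is the highest for Kcnip4 (3260 CPM) and Kcnip3 (42.2 CPM).

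Of the 217 own-strand Kcnip4 sites, 126 had a higher and 91 a lower fitted value in obesity, and the median log2 ratio was 0.11 beside 0.05 over all 73922 sites. In 2 sites every obesity library was above every control library, and in 2 sites every one was below. Over all sites, 1.43% were apart in the first way and 1.69% in the second. The 4 sites apart began at 66171922 and 65997859 (higher) and at 66052735 and 65985122 (lower), the last of which was named after its values were seen.

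The site for which Kcnip4 was proposed lay at 66171922 to 66171947, 51.9% along the span, and held 323 reads. It had 14, 17, 14 and 17 reads in control against 61, 28, 77 and 95 in obesity. All 4 obesity libraries were above all 4 control libraries, with 9.78 ± 1.40 CPM in control and 36.5 ± 13.9 CPM in obesity (SD, n = 4), with a fitted log2 ratio of 1.90 (SE 0.43). This site carried 1.12% of the Kcnip4 reads. These values chose the gene and are not evidence for a difference.

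The other 4 Kcnip4 sites with the smallest unadjusted p held 33 to 52 reads each. At 66052735 to 66052755 the reads were 15, 12, 2 and 9 in control against 0, 0, 1 and 1 in obesity. At 65997859 to 65997884 they were 0, 2, 1 and 2 in control and 7, 7, 4 and 10 in obesity. The first was lower and the second higher in every obesity library than in every control library. At 66013727 to 66013734 the reads were 3, 3, 1 and 3 in control and 24, 2, 7 and 9 in obesity. At 66415318 to 66415334 they were 1, 21, 11 and 3 in control and 1, 4, 1 and 1 in obesity. Both of these overlapped between the groups, and the low obesity value of the one (2 reads) and the high obesity value of the other (4 reads) were both in obesity library 2. The fitted log2 ratios, in the order given, were -4.03, 2.27, 1.89 and -2.34, each resting on few reads.

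**Figure D3:**
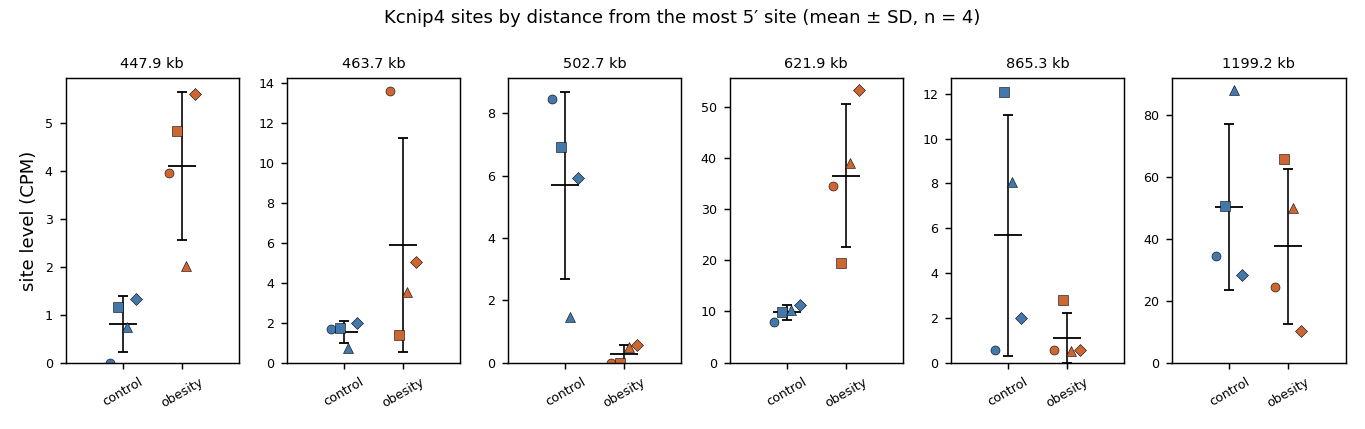
Site level in CPM (y axis, a separate scale from 0 in each panel) at 6 Kcnip4 sites, titled by distance in kb from the most 5′ site. Points are libraries, with a marker shape for each library number, and bars are the mean ± SD (n = 4). The groups are apart at 447.9, 502.7 and 621.9 kb, where 621.9 kb is the site with 9.78 and 36.5 CPM in control and obesity, and they overlap at the other 3, of which 1199.2 kb is the most 3′ site.

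At many Kcnip4 sites the reads differed by library number, in the same way in both diet groups. Both groups are numbered 1 to 4, and the labels do not say what a shared number stands for. Over the 217 sites, the log2(CPM + 0.5) values, each less its group mean, correlated at 0.331 to 0.538 between the control and the obesity library of the same number. Between libraries of different numbers and groups the correlations were -0.297 to 0.048. Over all sites of the table the same-number values were 0.251 to 0.360. These correlations are across sites of the same libraries and are given as a description.

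A site was counted as differing by number where both libraries of a number were at least 4-fold above both libraries of another number. Among sites with at least 100 reads this held for 17 of 83 Kcnip4 sites (20.5%), beside 10.7% of all 19881 such sites. By this choice the diet groups overlap at each of the 17. Reads per site were not matched between the 83 and the 19881 sites, and the difference in share was not tested. The numbers that stood highest and lowest varied from site to site. Numbers were ranked by the mean CPM of both their libraries, so a single library of another number could be higher or lower. By this mean, libraries 1 were highest at 6 of the 17 sites and lowest at 8. Libraries 2 were highest at 3 and lowest at 3, libraries 3 highest at 4 and lowest at 5, and libraries 4 highest at 4 and lowest at 1.

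The clearest case was named after its values were seen. At 66052488 to 66052536, the reads were 123, 6, 18 and 19 in control against 121, 3, 48 and 28 in obesity. Both libraries numbered 1 were far above the rest, and both numbered 2 were the lowest.

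Along the gene, 30 pairs of neighbouring Kcnip4 sites were under 100 bases apart, and in 6 of these pairs both sites held at least 100 reads. These pairs did not behave alike. In a pair 40 bases apart, named like the next after its values were seen, libraries 1 and 2 were high at opposite sites. The first, at 65678207 to 65678236, had 6, 91, 29 and 19 reads in control and 32, 56, 42 and 45 in obesity. The second, at 65678276 to 65678296, had 119, 7, 32 and 28 in control and 67, 5, 40 and 47 in obesity. Summed over both sites, the reads were 125, 98, 61 and 47 in control and 99, 61, 82 and 92 in obesity, so the wide gap between libraries 1 and 2 at each site was smaller in the sum. By contrast, the site at 66052488 described above and its neighbour at 66052565 to 66052630, 29 bases away, were both highest in libraries 1. The neighbour had 35, 11, 2 and 13 reads in control and 53, 8, 5 and 7 in obesity. Their sums stayed far apart, at 158, 17, 20 and 32 in control and 174, 11, 53 and 35 in obesity.

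**Figure D4:**
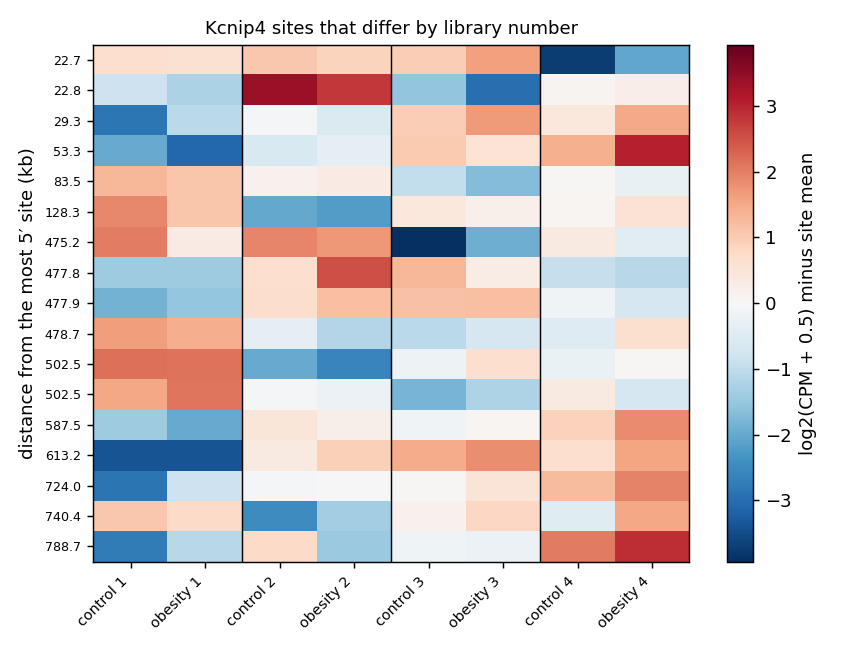
Heat map of the 17 Kcnip4 sites that differ by library number, with sites as rows by distance in kb from the most 5′ site and the 8 libraries as columns in pairs of the same number. Colour is log2(CPM + 0.5) minus the mean of the site over the 8 libraries, red above and blue below. Sites were chosen for a difference between numbers in both groups, so the agreement within a number is part of the choice. The heat map shows which numbers are high and low at each site.

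Kcnip1, the KChIP1 gene, was read at far fewer sites. They lay on chromosome 10, minus strand, from 18558128 to 18779262, a span of 221 kb, with 26 sites and 2018 reads. The gene had 193, 265, 195 and 305 reads in control against 269, 230, 284 and 277 in obesity. The levels were 137, 177, 158 and 232 CPM in control and 202, 187, 166 and 189 CPM in obesity. Control libraries 1 and 4 were the lowest and the highest of all 8, with the obesity libraries between them. No difference was detected, with a log2 ratio of 0.08 (SE 0.21, adjusted p = 0.991, edgeR quasi-likelihood test, Benjamini-Hochberg over 12255 genes). At the threshold of 0.1, edgeR called 0% of all genes and DESeq2 called 4, while 627 (5.12%) were under 0.05 before adjustment.

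The most abundant Kcnip1 site, at 18742086 to 18742108, held 230 reads, or 11.4% of the gene. It had 24, 23, 15 and 36 reads in control against 47, 31, 31 and 23 in obesity, and the groups overlapped (log2 ratio 0.32, SE 0.44). The most 3′ site, at 18558128 to 18558135, had 12, 16, 16 and 15 reads in control and 8, 17, 8 and 21 in obesity, also with overlap. The last 10% of the span held 13.3% ± 2.73 of the Kcnip1 reads in control and 11.4% ± 5.55 in obesity (2 sites, SD, n = 4), which did not differ beyond the spread (2-sided exact permutation test, p = 0.571, adjusted p = 0.886 over the 2 genes tested). The smallest p such a test of 4 against 4 can give is 0.0286.

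A further 4 sites with the Kcnip1 symbol lay on the opposite strand of chromosome 10 and were left out of the gene level. With them, the Kcnip1 log2 ratio was 0.74 in place of 0.08 (adjusted p = 0.907, edgeR). The largest, at 18746482 to 18746489, had 29, 20, 19 and 21 reads in control and 649, 10, 65 and 20 in obesity. Of its 833 reads, most were in obesity library 1 alone, and the other 3 obesity libraries lay on both sides of the control values. It had the only unadjusted p under 0.05 (0.0269) among the 34 Kcnip1 and Kcnip3 sites, and an adjusted p of 1.00 (edgeR). Its log2 ratio was 2.91, and 0.28 without obesity library 1.

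Kcnip3, the DREAM gene, had 4 sites on chromosome 3, minus strand, from 120023060 to 120053065, a span of 30.01 kb with 291 reads. The gene had 33, 42, 40 and 22 reads in control against 29, 20, 43 and 62 in obesity. The levels were 23.4, 28.1, 32.5 and 16.7 CPM in control and 21.8, 16.2, 25.2 and 42.2 CPM in obesity. Obesity libraries held both the lowest and the highest value, and no difference was detected, with a log2 ratio of 0.07 (SE 0.39, adjusted p = 0.993, edgeR). Without obesity library 4, the one with 98.0 CPM of Ttr, the log2 ratio was -0.23. Without control library 4 it was -0.08, so the sign of this value rested on single libraries. A link between the Ttr and Kcnip3 values was not tested.

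The most 3′ site of Kcnip3, at 120023060 to 120023082, carried 44.3% of the Kcnip3 reads. It had 6, 21, 19 and 16 reads in control and 18, 13, 14 and 22 in obesity, or 47.1% ± 22.4 and 48.8% ± 17.1 of the Kcnip3 reads (SD, n = 4, exact permutation test, p = 0.886, adjusted p = 0.886). The site at 120053063 to 120053065 held 30.2% of the gene, with 18, 18, 12 and 2 reads in control and 3, 7, 17 and 11 in obesity. That at 120046290 to 120046291 held 15.1%, with 9, 0, 6 and 2 reads in control and 6, 0, 12 and 9 in obesity. The site at 120038628 to 120038664 had 0, 3, 3 and 2 reads in control and 2, 0, 0 and 20 in obesity. None of the 4 sites separated the groups, and at the last one obesity library 4 alone was high.

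Among the 34 Kcnip1 and Kcnip3 sites, 0 passed the adjusted threshold by edgeR or by DESeq2, 1 was under 0.05 before adjustment, and in 0 were the groups apart. Over all sites, edgeR called 0.00135% (1 site) and DESeq2 called 10, and 3.14% were under 0.05 before adjustment. No shift of reads between sites with the diet was detected in either gene (adjusted p 1.00 for both, edgeR diffSpliceDGE with Simes p), where 0% of 7996 genes passed and 109 (1.36%) were under 0.05 before adjustment. In a fit that paired the libraries by number, 0 of these sites and neither gene passed, beside 0.00541% of all sites, 0.277% of all genes and 0.0125% of genes tested for site usage. No Kcnip3 site held more than 22 reads in a library.

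**Figure D5:**
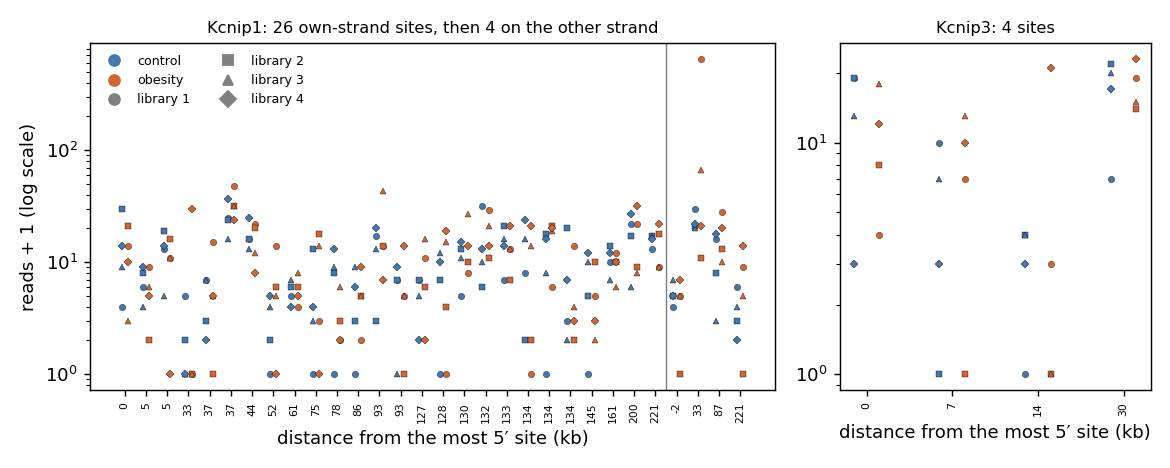
Reads + 1 on a log scale (y axis) at each Kcnip1 site (left) and Kcnip3 site (right), ordered by the distance in kb from the most 5′ site of the gene (x axis), with the 4 opposite-strand Kcnip1 sites to the right of the line. Points are libraries, control and obesity side by side. The groups overlap at every site, and the point at 649 reads is obesity library 1 at the opposite-strand site.

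Set side by side per length of the span, Kcnip4 had the highest read level of the 3 listed genes. Its level over the 8 libraries was 2.16 ± 0.354 CPM per kb, that of Kcnip3 was 0.859 ± 0.286 and that of Kcnip1 was 0.818 ± 0.130 (SD, n = 8). Kcnip4 was above Kcnip1 per kb in 8 of 8 libraries, by 1.40 ± 0.30 on the log2 scale (SD, n = 8), given without a test because Kcnip4 was chosen on its reads in these libraries. Kcnip1 and Kcnip3 did not differ beyond their spread per kb, with a log2 difference of -0.02 ± 0.59 (SD, n = 8) and Kcnip1 higher in 3 of 8 libraries (2-sided exact sign-flip permutation test, p = 0.930). These levels rest on the span between the outermost sites and not on transcript length. They are reads per distance and were not taken as transcript abundance.

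Counting only the last 10% of each span, the levels were 61.0 ± 25.8 CPM for Kcnip4, 22.4 ± 8.16 CPM for Kcnip1 and 11.6 ± 3.83 CPM for Kcnip3 (SD, n = 8). Kcnip4 was above Kcnip1 in 7 of 8 libraries, by 1.38 ± 1.11 on the log2 scale (SD, n = 8). Kcnip1 was above Kcnip3 in 8 of 8, by 0.88 ± 0.69 (exact permutation test, p = 0.00781). Adjusted together with the comparison of Kcnip4 and Kcnip1, whose own p is not used here, this p was 0.0156. The last 10% was not of equal length in these genes, as the span was 221 kb for Kcnip1 and 30.01 kb for Kcnip3. It held 2 sites for Kcnip1 and 1 for Kcnip3. At the most 3′ site alone, Kcnip1 had 113 reads and Kcnip3 had 129 over all libraries, so this order depended on the window. As plain shares of the library, without regard to length, the order was that of the last 10%, with 2589 ± 425, 181 ± 28.8 and 25.8 ± 8.58 CPM. On that scale Kcnip4 was 14.2-fold above Kcnip1 in 8 of 8 libraries. Kcnip1 was 7.02-fold above Kcnip3, also in 8 of 8 (exact permutation test, p = 0.00781 before and after the same adjustment, the smallest that 8 libraries allow).

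Of 8 listed genes for Kv4 pore-forming subunits, Dpp subunits and Kv beta subunits, 6 were measured. None passed the threshold of the test (0 of 6, edgeR, 0 at an unadjusted p under 0.05, 0 by DESeq2). The fitted value was higher in obesity for 5 and lower for 1, and the median log2 ratio was 0.16 beside 0.00072 over all genes. Kcnd2, the Kv4.2 pore-forming subunit, had 1137, 809, 789 and 945 CPM in control against 1025, 956, 955 and 1020 CPM in obesity. Its groups overlapped, with a log2 ratio of 0.10 (SE 0.18). The lower member, named after its values were seen, was the beta subunit gene Kcnab2, with 142, 115, 177 and 141 CPM in control against 110, 136, 105 and 75.5 CPM in obesity. Its groups overlapped too (log2 ratio -0.43, SE 0.23, adjusted p = 0.921, edgeR). For Kcnd3, the Kv4.3 subunit, the log2 ratio was 0.14 (SE 0.20), and Kcnd1 was not listed.

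Dpp6, an auxiliary subunit, had 784, 1024, 1086 and 943 CPM in control and 1232, 1087, 1157 and 1185 CPM in obesity. Each obesity library lay above every control library, the lowest by about 1 CPM, and the log2 ratio was 0.28 (SE 0.18, adjusted p = 0.928, edgeR). Over all genes, 1.68% were apart in this direction and 1.77% in the other. Dpp10, the related subunit, had 585, 460, 397 and 536 CPM in control and 865, 456, 537 and 632 CPM in obesity, with overlap (log2 ratio 0.33, SE 0.22, adjusted p = 0.942, edgeR). From sites in the last 10% of the span alone, the log2 ratio was 0.05 for Dpp6 and 0.86 for Dpp10. With sites on both strands it was 0.46 for Dpp6 and 0.33 for Dpp10.

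Of 9 listed neuronal calcium sensor genes outside the KChIPs, 6 were measured, with a higher fitted value in obesity for 4 and a lower for 2, and 0 passed the threshold (edgeR and DESeq2, 0 at an unadjusted p under 0.05). Their median log2 ratio was 0.12. The 3 with the most reads were Vsnl1, the visinin-like protein, at 0.16 (SE 0.27), Hpcal4, a hippocalcin-like protein, at -0.40 (SE 0.47), and Ncald, neurocalcin delta, at 0.34 (SE 0.26). Of the genes tied to Kcnip3, the partner gene Psen2 and the target gene Pdyn did not pass either (0 of 2 by edgeR and DESeq2, 0 at an unadjusted p under 0.05). Their log2 ratios were -0.32 (SE 0.51) for Psen2 and -0.34 (SE 1.02) for prodynorphin, Pdyn, which had 40 reads in all.

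The genes whose level over the 8 libraries was most like that of Kcnip4, among 8302 genes with a mean of at least 10 CPM, were Atf2 (Pearson's r 0.937, Spearman's rho 0.810), Camkmt (0.925 and 0.905) and Lrrc7 (0.916 and 0.833). For Kcnip1 they were Cited1 (0.943 and 0.952), Itfg2 (0.937 and 0.976) and Afmid (0.931 and 0.905). For Kcnip3 they were Frmpd4 (0.972 and 0.976), Gak (0.957 and 0.952) and Bckdhb (0.913 and 0.881). These are the highest of 8302 values each, share their libraries and depth, and are given as a description. Against Kcnip4, the correlation was 0.167 for Kcnip1, 0.298 for Kcnip3, 0.393 for Kcnd2, 0.240 for Dpp6 and 0.596 for Dpp10 (Pearson's r, 8 libraries).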

How the data were processed

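The authors deposited raw read counts per polyadenylation site for the 8 libraries, without normalization. The submitters' processing notes name Bowtie2 2.2.3 and the Rnor_6.0 assembly, whose coordinates are used throughout. The site caller, the read counter and the filters are not given in the sources used here. A line without a site held the total of control library 1 (1710888 reads) and was left out. No gene could be read from the symbol at 273 sites, which were kept without one. Gene counts were sums over sites on the strand with most reads of the gene, and 1878 genes had sites on both strands.

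Counts per site and per gene were compared in edgeR 4.0.16 under R 4.3.3 (quasi-likelihood test, robust fit, TMM scaling, no filter, Benjamini-Hochberg adjustment over all features, threshold 0.1), and site usage with diffSpliceDGE. Alternatives were DESeq2 1.42.0 and its size factors, filterByExpr, other sets of sites per gene, each library left out in turn, and the library number as a block. The statistical scripts were first tested on simulated counts. Single values per library were compared with exact permutation tests.

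The members and gene lists were chosen with earlier results of these data known, and 1 list member is not reported here. Sites named were those with at least 10% of the reads of a gene, the most 3′ site, and for Kcnip4 the 5 with the smallest unadjusted p. Likeness to a gene was ranked on log2(CPM + 1), with 3 genes named each. Over all sites, deviations from the group mean correlated at 0.251 to 0.360 between same-numbered libraries, above 0.1 in all 4 pairs, so the numbers may pair the libraries, which rests on these correlations alone. The reported tests are unpaired, and the block is an alternative. The lowest chi-square between 2 libraries was 2.86 per site over 28 pairs, above sampling noise, so all were counted as separate samples. The p-values measure the spread between these libraries.

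The median site held 57 reads over all libraries, so most sites rest on few reads per rat. Reads carry no molecular identifiers, and intervals cover counting error only. No genome of the assembly was used here, so no site was placed in an exon, intron or UTR, and A-rich sequence beside sites was not checked.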

Additional observations from a re-analysis of the deposited data

Results flagged for a closer look

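Values were checked for a library lying far from the other 3 of its group (Dixon's gap ratio, 95% level). Of 56 checks 3 passed, and chance gives about 1 in 20, or 2.8. The opposite-strand Kcnip1 site at 18746482 was at 367.463 CPM in obesity library 1, against 6.93 to 32.9 CPM in the other obesity libraries. The Kcnip3 site at 120038628 was at 11.2123 CPM in obesity library 4, against 0 to 1.13 CPM in the others. The Kcnip4 site at 66415318 was at 2.7702 CPM in obesity library 2, against 0.506 to 0.566 CPM, which rests on 4 reads.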

How the results depend on the processing

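With the library number as a block, 4 sites, 34 genes (0.277%) and 1 gene by site usage passed the threshold, against 1, 0 and 0 without it. No Kcnip1 or Kcnip3 value was called with or without the block (adjusted p 0.898 and 0.996 for the gene levels). The block changed no other call described here at the adjusted threshold. At an unadjusted p under 0.05 (edgeR), it gave Dpp6, Dpp10 and Kcnab2, or 3 of 6 Kv4 and beta subunit genes in place of 0. Of the 6 calcium sensor genes it gave 1 in place of 0, Hpcal4 (log2 ratio -0.67 in place of -0.40). The lowest adjusted p in these lists was then 0.398 and 0.285. The share of all genes at this unadjusted level with the block was not counted. DESeq2 called 10 sites and 4 genes, and filterByExpr left 0 sites. With a library left out, 0 to 1 sites and 0 to 1 genes were called, the 1 gene without obesity library 2. The gene log2 ratios then ran from -0.0258 to 0.24 for Kcnip1 (negative without control library 1), from -0.23 to 0.24 for Kcnip3, from -0.0861 to 0.41 for Vsnl1 and from -0.75 to 0.0219 for Pdyn. The Kcnip3 site at 120023060 ran from -0.33 to 0.17 and that at 120038628 from -1.58 to 1.63. The share in the last 10% of the span, obesity minus control, ran from -4.37 to 0.13 percentage points for Kcnip1, from -7.96 to 10.2 for Kcnip3 and from -0.95 to 0.22 for Kcnip4. The Kcnip4 value was positive without control library 3, where the log2 ratio of the most 3′ Kcnip4 site was 0.00090 in place of -0.42. From sites in the last 10% of the span alone, the log2 ratios were -0.0599 for Kcnip4, -0.0983 for Kcnd2, 0.42 for Hpcal4 and 0.35 for Psen2. The Kcnip3 site at 120023060, at -0.04, was 0.0070 with DESeq2 size factors, 0.0259 with filterByExpr, 0.0085 with DESeq2 and 0.0495 with the block. Per kb, Kcnip1 minus Kcnip3 was -0.0186 on the log2 scale. For these reversals the cause was not tested. With thresholds chosen after seeing the data, the Kcnip4 sites differing by number were 32 of 150 (21.3%, all sites 13.9%) at 50 reads or more and 8 of 83 (9.64%, all sites 4.71%) at 8-fold or more.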
